A study of Homo sapiens with 6 samples.

Results

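The TGF-β family ligands and latent binding proteins described here are 10 genes, the 8 ligand genes TGFB1, TGFB2, TGFB3, INHBA, MSTN, GDF11, GDF15 and BMP4 and the 2 latent binding protein genes LTBP1 and LTBP3. They were chosen by name, as the genes of a raw count table whose symbol equals a member of this list, and account for 10 of the 58735 entries in that table. Of the 10 genes, 9 passed the filter on low counts and stand among the 15935 genes tested. INHBA did not pass the filter and is described by its counts.

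Ligands of the TGF-β family are secreted dimers made as precursors that furin-type proteases cleave into a prodomain and a mature growth factor. They bind paired type I and type II receptor kinases, which phosphorylate SMAD transcription factors and can also activate TAK1, the TGF-β-activated kinase. For the TGF-β isoforms and myostatin the cleaved prodomain keeps holding the growth factor in a latent complex, and latent binding proteins tether the TGF-β complexes to the extracellular matrix. In skeletal muscle the family is best known for myostatin, which limits muscle mass, and for TGF-β1 and activins, which oppose myogenic differentiation.

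RD is an established human embryonal rhabdomyosarcoma line, a tumor line of the skeletal muscle lineage. RNA was sequenced from 3 RD cultures transduced with lentivirus carrying a scrambled shRNA (control cultures) and from 3 carrying TAK1 shRNA (TAK1 knockdown cultures), and the question was which transcripts change when TAK1 is silenced. Both groups were virus-transduced, and only cells with TAK1 shRNA # 1 were sequenced, so loss of TAK1 and other effects of that construct cannot be told apart. The study speaks of triplicates without saying whether the cultures were separate transductions, so p-values here measure the spread between these samples, which may be technical.

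Total counts per library ran from 28839898 to 34469323, and all replicate pairs differed by more than sampling noise (chi-square per degree of freedom of 2.88 to 8.60). MAP3K7, the gene encoding TAK1, decreased from 77.3 ± 0.743 to 31.3 ± 2.00 CPM (SD, n = 3), with a log2 difference of -1.30, where CPM is a count scaled to the effective size of its library. Of the 10 muscle markers listed for the lineage of RD, 8 were tested, MYF5 had 0 counts in all libraries, and their summed level was 2608 to 2632 CPM with scrambled shRNA and 2718 to 2913 CPM with TAK1 shRNA. MYOD1, MYOG, CHRNG, MYMK and ACTC1 of that list were called higher and CHRNA1 lower. The summed epithelial markers were at 56.4 to 62.8 CPM in control and 27.7 to 31.1 CPM in TAK1 knockdown cultures, nearly all from KRT18, with CDH1 and KRT19 at 0. Endothelial markers summed to at most 0.162 CPM and leukocyte markers to at most 0.352 CPM in any library. In bulk RNA, fewer cells of a kind and less RNA per cell cannot be told apart.

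Upstream sequences of MSTN, GDF11 and TGFB3 are shown because these 3 genes rose in the TAK1 knockdown cultures and kept that call under every alternative except a fold threshold of 0.5 in place of 0.25. Each run covers the 250 bases before the RefSeq start site on the gene's own strand in GRCh38.p14. Capitals mark the E-box CANNTG, a general motif that MyoD-type factors share with other factors, and the TATA box TATAAA. The MSTN run lies at chr2:190062730-190062979 on the minus strand, the GDF11 run at chr12:55742872-55743121 on the plus strand, and the TGFB3 run at chr14:75983012-75983261 on the minus strand.
MSTN: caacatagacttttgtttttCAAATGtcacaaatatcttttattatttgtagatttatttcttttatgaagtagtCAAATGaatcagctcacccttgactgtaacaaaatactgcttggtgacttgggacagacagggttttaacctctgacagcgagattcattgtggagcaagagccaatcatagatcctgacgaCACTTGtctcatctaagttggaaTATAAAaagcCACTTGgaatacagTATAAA
GDF11: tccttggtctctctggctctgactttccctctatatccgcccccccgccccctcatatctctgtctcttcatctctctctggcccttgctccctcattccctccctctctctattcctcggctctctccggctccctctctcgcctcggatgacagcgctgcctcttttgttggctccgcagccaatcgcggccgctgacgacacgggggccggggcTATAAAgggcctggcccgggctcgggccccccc
TGFB3: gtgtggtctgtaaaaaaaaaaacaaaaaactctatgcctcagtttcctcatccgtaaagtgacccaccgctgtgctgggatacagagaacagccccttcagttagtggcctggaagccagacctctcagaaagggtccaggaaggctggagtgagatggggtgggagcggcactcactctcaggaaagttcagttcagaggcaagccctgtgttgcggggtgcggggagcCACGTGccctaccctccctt

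The 3 upstream regions differ in base content and in the motifs they hold. In windows of 300 bases, 250 before and 50 after the start, MSTN was 36.0% G and C with 4 E-boxes, whose first bases lie 230, 175, 53 and 20 bases before the start. Among all 35116 RefSeq promoter windows of that length the median content of G and C was 58.7%, 68.7% held at least 1 E-box on either strand and 5.58% held 4 or more, a limit chosen after the MSTN value was seen. GDF11, the closest relative of MSTN, was 70.0% G and C with 0 E-boxes, and the first TGFB3 window was 56.0% with 1 E-box at 20 bases before the start. The sequence TATAAA, read on the gene's strand, stood 30 and 6 bases before the MSTN start and 33 bases before the GDF11 start. It was absent from the first TGFB3 window but stood 30 bases before a second start listed for that gene. All 10 members matched the RefSeq promoter table, with 16 windows in all. At least 1 E-box stood in 11 of these 16 windows, near the 68.7% of all windows. Windows of LTBP1, which fell, and of LTBP3, which was not called, held up to 3 E-boxes each. TATAAA stood in 6 of the 16 windows (1 each of TGFB2, TGFB3, INHBA, MSTN, GDF11 and GDF15), where 7.33% of all windows had one. The AP-1 motif TGANTCA was found in MSTN alone and the CRE TGACGTCA in LTBP1 alone among the members, against 7.71% and 1.85% of all windows searched on both strands. These matches describe letters and not bound sites.

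Across the 9 tested members, 4 rose (MSTN, GDF11, TGFB3 and BMP4), 1 fell (LTBP1) and 4 were not called (TGFB1, TGFB2, GDF15 and LTBP3). Calls needed an adjusted p under 0.05 and a log2 fold change of at least 0.25 in either direction, and by this rule 23.1% of all tested genes were called, 11.8% higher and 11.3% lower. The median log2 fold change was 0.18 over the tested members and 0.02 over all tested genes. The called changes were small, between 0.82-fold for LTBP1 and 1.33-fold for GDF11. The plot of CPM by culture shows each library, and the plot of log2 fold changes shows how far each interval reaches.

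**Figure D1:**
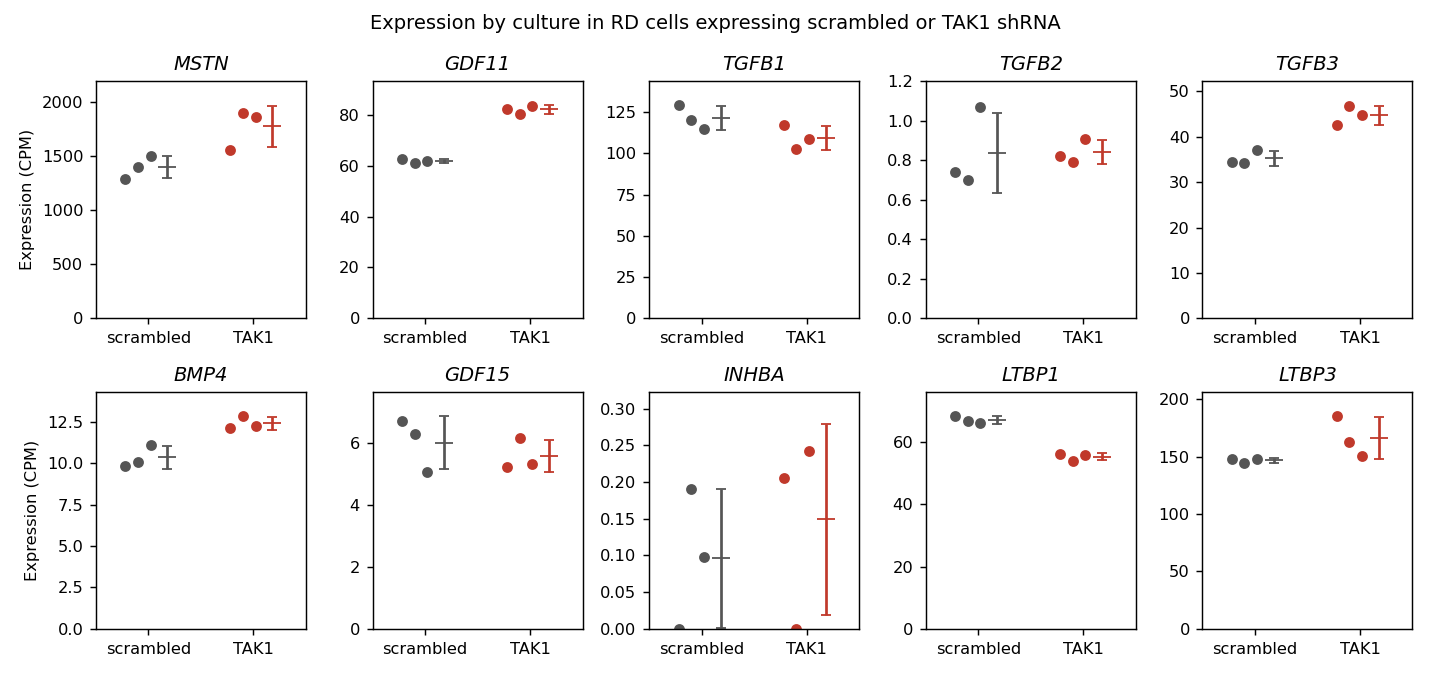
Expression of the 10 members in CPM (linear axis from 0, one scale per gene) in the 3 control cultures (scrambled, grey) and the 3 TAK1 knockdown cultures (TAK1, red). Points are libraries in replicate order, and the cross with bars is the mean ± SD. MSTN, GDF11, TGFB3, BMP4 and LTBP3 show every TAK1 knockdown point above the control points, LTBP1 shows every one below, and TGFB1, TGFB2, GDF15 and INHBA overlap. The share of all tested genes whose groups separate in this way is not given here.

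MSTN and GDF11, the most closely related pair of the family, both rose. MSTN encodes myostatin, a negative regulator of muscle growth, and lies at chr2:190055700-190062729 on the minus strand of GRCh38. It was counted 36733, 44076 and 46324 times in the control libraries and 45599, 67098 and 61502 times in the TAK1 knockdown libraries. After scaling, MSTN read 1292, 1399 and 1502 CPM in control cultures against 1559, 1900 and 1863 CPM with TAK1 knockdown. Every TAK1 knockdown culture was above every control culture, although TAK1 knockdown replicate 1 lay close to control replicate 3. The mean increased from 1398 ± 105 to 1774 ± 187 CPM (SD, n = 3). This corresponds to a log2 fold change of 0.34 (standard error, SE, 0.058; adjusted p = 4.69e-05 by edgeR). Leaving out single libraries moved the MSTN value between 0.29 and 0.43 without losing the call.

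GDF11 encodes a ligand whose mature part closely resembles myostatin and that is known for patterning the axial skeleton. It lies at chr12:55743122-55757264 on the plus strand. Its level was 62.7, 61.2 and 62.0 CPM with scrambled shRNA and 82.5, 80.4 and 83.5 CPM with TAK1 shRNA. The replicates of each group lay within a few CPM of each other, and the groups were far apart relative to that spread. GDF11 showed the highest log2 fold change of the tested members, 0.41 (SE 0.053, 95% interval 0.30 to 0.52), with an adjusted p of 1.25e-06 by edgeR. The log2 ratio of GDF11 to MSTN counts within a culture was -4.49 ± 0.12 in control and -4.43 ± 0.17 in TAK1 knockdown cultures. This difference of 0.07 had p = 0.6 in an exact two-sided permutation test, in which 3 against 3 cultures cannot go below 0.1. Without TAK1 knockdown replicate 1, in which MSTN was lowest, that difference was -0.03.

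Of the 3 TGF-β isoform genes, TGFB3 rose, and TGFB1 and TGFB2 were not called. TGFB1 encodes the isoform best known for fibrosis and immune control and lies at chr19:41301587-41353922 on the minus strand. Control cultures held 129, 120 and 115 CPM of TGFB1, and TAK1 knockdown cultures held 117, 103 and 108 CPM. The groups overlapped, since TAK1 knockdown replicate 1 was above control replicate 3. The mean was 122 ± 7.30 CPM in control and 109.5 ± 7.14 CPM in TAK1 knockdown cultures (SD, n = 3). Its log2 fold change of -0.15 (SE 0.056) had an adjusted p of 0.0397 by edgeR but lay under the fold threshold, so TGFB1 was not called. Over the 16 alternatives its adjusted p ran from 0.00435 to 0.234. A stretch of 215 bases, 6.59% of the TGFB1 exons, overlaps HNRNPUL1 on the opposite strand, which was itself at -0.10 with an adjusted p of 0.0514 by edgeR. Strand use in the counting is not given in the sources used here, so reads from that stretch cannot be assigned to one of these genes.

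TGFB3, whose isoform is known for its role in palate fusion, lies at chr14:75958097-75983011 on the minus strand. Replicates 1 to 3 gave 34.4, 34.2 and 37.0 CPM in control and 42.5, 46.8 and 44.9 CPM in TAK1 knockdown cultures, with no overlap. TGFB3 thus increased from 35.2 ± 1.57 to 44.7 ± 2.14 CPM (SD, n = 3), and its log2 fold change was 0.35 (SE 0.066, adjusted p = 0.000189 by edgeR). The antisense gene TGFB3-AS1 shares 3.12% of the TGFB3 exons and had at most 6 counts in a library.

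TGFB2 encodes the isoform known from heart and eye development and lies at chr1:218345336-218444619 on the plus strand. TGFB2 had 21, 22 and 33 counts in control and 24, 28 and 30 counts in TAK1 knockdown libraries. The groups overlapped throughout, at 0.836 ± 0.204 and 0.841 ± 0.0606 CPM (SD, n = 3). Its log2 fold change of 0.01 had a 95% interval from -0.72 to 0.73 and an adjusted p of 0.991 by edgeR, so that a change of the size seen for TGFB3 was not detectable at this depth. The sign turned negative when control replicate 1, control replicate 2 or TAK1 knockdown replicate 3 was left out, with values of -0.07, -0.11 and -0.06.

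Within each culture the balance of TGFB3 and TGFB1 was compared without any scaling between libraries. The log2 ratio of TGFB3 to TGFB1 counts was -1.91, -1.81 and -1.63 with scrambled shRNA and -1.46, -1.14 and -1.27 with TAK1 shRNA. All TAK1 knockdown cultures thus held more TGFB3 per TGFB1 than any control culture. The difference of 0.49 had p = 0.1 in the exact two-sided permutation test, the smallest value that 3 against 3 cultures allow, and 0.2 after adjustment over the 4 ratios compared. Per kilobase of exon, TGFB1 made up 84.4% ± 1.34 of the summed isoform transcripts in control and 79.3% ± 1.83 in TAK1 knockdown cultures (SD, n = 3). TGFB3 made up 15.3% ± 1.25 and 20.3% ± 1.81, and TGFB2 at most 0.416% in any culture. The sum of the 3 isoforms was 44.1 ± 2.01 and 42.3 ± 1.78 CPM per kilobase (exact permutation p = 0.4). TGFB2 to TGFB1 gave a difference of 0.18 (exact permutation p = 0.5).

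**Figure D2:**
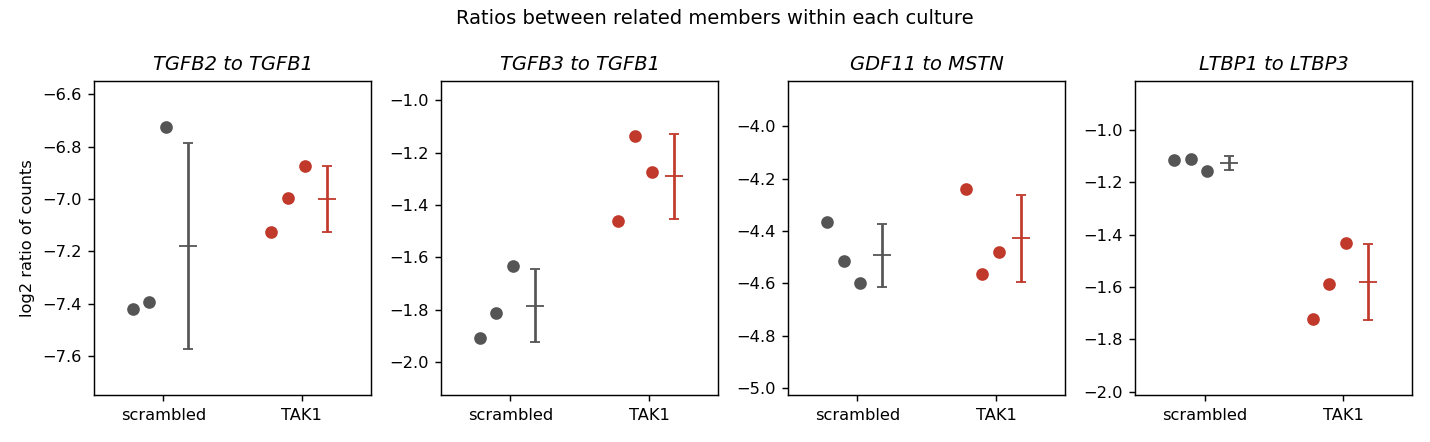
Log2 ratios of counts between related members within each culture, for TGFB2 to TGFB1, TGFB3 to TGFB1, GDF11 to MSTN and LTBP1 to LTBP3, each axis spanning the same log2 distance. Points are the 3 control (scrambled, grey) and 3 TAK1 knockdown cultures (TAK1, red), and the cross with bars is the mean ± SD. The groups are separate for TGFB3 to TGFB1 (higher by 0.49) and LTBP1 to LTBP3 (lower by 0.45) and overlap for the other two.

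BMP4 encodes a ligand of the BMP branch that signals through SMAD1 and SMAD5 and lies at chr14:53949736-53958761 on the minus strand. BMP4 levels were 9.81, 10.1 and 11.1 CPM in control against 12.1, 12.9 and 12.2 CPM in TAK1 knockdown cultures, without overlap. The log2 fold change of 0.26 (SE 0.099) lay just past both thresholds, with an adjusted p of 0.0442 by edgeR. This call was lost in 5 of the 6 fits that left out 1 library, with values from 0.23 to 0.28, and held only without control replicate 3, at 0.32. It was also lost with DESeq2 (adjusted p = 0.0662) and without the filter on low counts (adjusted p = 0.0977 by edgeR), and over all 16 alternatives its adjusted p ran from 0.0187 to 0.146. Of the BMP4 exons, 16.3% overlap a gene on the opposite strand that is known by an identifier only.

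GDF15, a stress-induced ligand of the hindbrain receptor GFRAL, lies at chr19:18374731-18389176 on the plus strand. GDF15 read 6.72, 6.29 and 5.06 CPM with scrambled shRNA and 5.23, 6.17 and 5.33 CPM with TAK1 shRNA. The groups overlapped, and the log2 fold change of -0.11 had a 95% interval of -0.40 to 0.18 and an adjusted p of 0.616 by edgeR. The value was -0.02 without control replicate 1 and -0.22 without control replicate 3. GFRAL had 0 counts in all 6 libraries, which allows up to 3 counts in each.

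INHBA encodes the activin A subunit and lies at chr7:41667168-41705834 on the minus strand. It was counted 0, 6 and 3 times in the control libraries and 6, 0 and 8 times in the TAK1 knockdown libraries, 9 and 14 counts in sum. A count of 0 allows up to 3 counts, equal to 0.106 CPM in control replicate 1 and 0.0849 CPM in TAK1 knockdown replicate 2. Levels this low do not order the groups. These limits cover counting error only.

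Of the latent binding protein genes, LTBP1 fell and LTBP3 was not called. LTBP1 encodes a matrix protein that binds the TGF-β prodomain by a disulfide bond and holds the latent complex on fibrillin fibres, and it lies at chr2:32946953-33399509 on the plus strand. The LTBP1 level was 68.6, 66.8 and 66.2 CPM in control against 56.3, 54.1 and 55.8 CPM in TAK1 knockdown cultures. Every TAK1 knockdown culture was below every control culture, by far more than the spread within a group. It decreased from 67.2 ± 1.22 to 55.4 ± 1.15 CPM (SD, n = 3), with a log2 fold change of -0.28 (SE 0.055, adjusted p = 0.000303 by edgeR). With library size as the only scaling its log2 fold change was -0.23, under the fold threshold.

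LTBP3 encodes a related protein that carries latent TGF-β and is also known to bind the myostatin precursor. It lies at chr11:65538559-65558930 on the minus strand. LTBP3 stood at 148, 144 and 148 CPM with scrambled shRNA and at 186, 163 and 151 CPM with TAK1 shRNA. The groups did not overlap, but TAK1 knockdown replicate 3 stood only slightly above the controls and replicate 1 far above them. The log2 fold change of 0.18 (SE 0.058, adjusted p = 0.019 by edgeR) was under the fold threshold, and LTBP3 was not called. It was 0.09 without TAK1 knockdown replicate 1 and 0.24 without TAK1 knockdown replicate 3. The log2 ratio of LTBP1 to LTBP3 counts was -1.13 ± 0.03 in control and -1.58 ± 0.15 in TAK1 knockdown cultures, a difference of -0.45 with no overlap (exact permutation p = 0.1, the smallest possible, and 0.2 adjusted over the 4 ratios).

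Overlapping genes were also looked up for other members. SARNP, on the opposite strand, shares 4.29% of the GDF11 exons and had at most 6 counts in a library. A gene known by identifier only shares 3.39% of the LTBP1 exons, and TGFB2-OT1, which shares 22.7% of the TGFB2 exons on the same strand, had 0 counts in all libraries. The antisense genes TGFB2-AS1 and INHBA-AS1 had at most 2 counts in a library. How reads in shared stretches were assigned is not given in the sources used here. These low counts therefore do not show how many reads the shared stretches held. MSTN and GDF15 share no exon with another annotated gene.

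**Figure D3:**
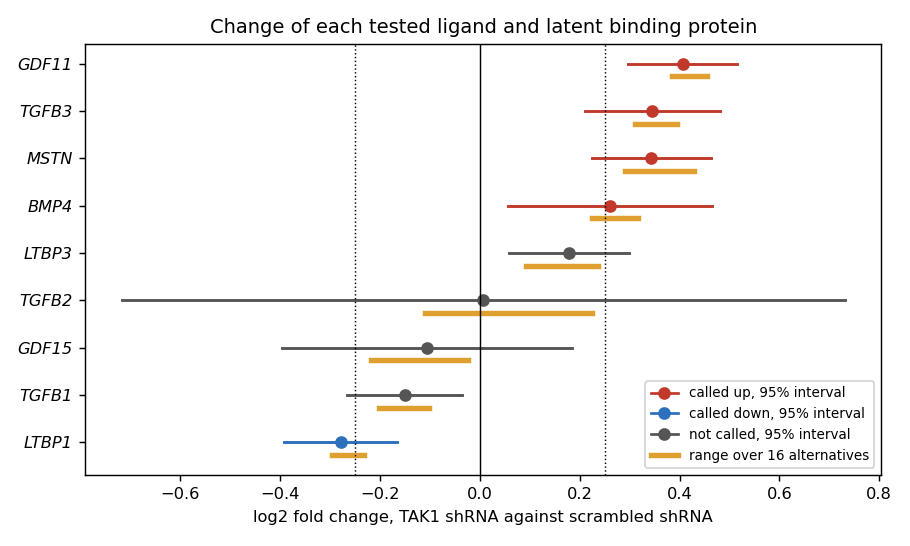
Log2 fold change of the 9 tested members, TAK1 shRNA against scrambled shRNA (3 cultures each). Points with bars are the edgeR value and its 95% interval (red called higher, blue called lower, grey not called), orange bars span the 16 alternative settings, and dotted lines mark the fold threshold of 0.25 in each direction. The orange bars of GDF11, TGFB3 and MSTN stay above the threshold, those of BMP4 and LTBP1 cross it, and that of TGFB2 crosses 0.

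Levels were compared between members as CPM per kilobase of merged exon in GENCODE 44. The merged length counts every annotated exon, used in RD cells or not (11521 bases for LTBP3), so the order between genes depends on it. MSTN stood at 496 ± 37.4 CPM per kilobase in the control cultures (SD, n = 3), place 40 from the top among 13842 tested genes with a length. It was at 629 ± 66.3 CPM per kilobase in the TAK1 knockdown cultures, place 29. TGFB1 followed at 37.2 ± 2.24 in control and 33.5 ± 2.19 CPM per kilobase in TAK1 knockdown cultures. In control cultures LTBP3 (12.7), LTBP1 (9.15), GDF11 (7.04), TGFB3 (6.75), BMP4 (3.34), GDF15 (2.89), TGFB2 (0.138) and INHBA (0.0116 CPM per kilobase) came next in that order. Of these neighbours, GDF11 and TGFB3 overlapped in their control values, as did BMP4 and GDF15, and the others did not. In TAK1 knockdown cultures no neighbours overlapped, and LTBP1 stood sixth, at 7.54 CPM per kilobase, behind GDF11 at 9.33 and TGFB3 at 8.57. MSTN made up 89.6% ± 1.06 of the summed transcripts of the 8 ligands per kilobase in control cultures. In TAK1 knockdown cultures it made up 91.5% ± 1.08. The exact permutation p was 0.2, where 3 against 3 cultures cannot go below 0.1. RNA level per length is not an amount of secreted ligand.

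**Figure D4:**
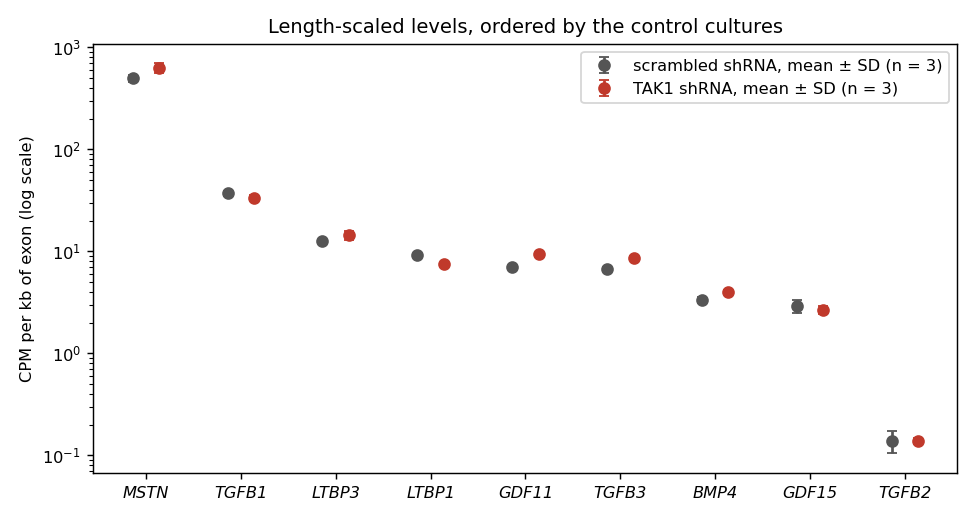
Level of 9 members in CPM per kilobase of exon (log axis) in control (grey) and TAK1 knockdown cultures (red), mean ± SD over 3 cultures, ordered by the control mean. MSTN stands above TGFB1 by more than 10 times and TGFB2 is lowest. INHBA, with libraries at 0, is not drawn.

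Other genes of the pathway were counted by role from lists written with earlier results of these data known. Of the 128 other pathway genes, 90 were tested, 15 rose and 33 fell, with a median log2 fold change of -0.15. The members had 4 higher and 1 lower with a median of 0.18. Over all tested genes 11.8% were called higher and 11.3% lower, with a median of 0.02. These shares are the background for the counts of each list below. The plot by role shows every tested gene. No gene of the 25 other family ligands was called, of which 7 passed the filter. INHBE, BMP2, BMP7, BMP8A, BMP8B, LEFTY1 and AMH were these 7, and 1 of them, BMP8B, had an unadjusted p under 0.05 (0.0265 by edgeR). DESeq2 and limma voom also called 0 of them. The share called over all tested genes was 23.1%. BMP2, BMP8A, BMP8B and LEFTY1 averaged at most 1.62 CPM in either group, with SEs of 0.28 to 0.38. Changes of the size called among the members were not detectable in these low genes.

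**Figure D5:**
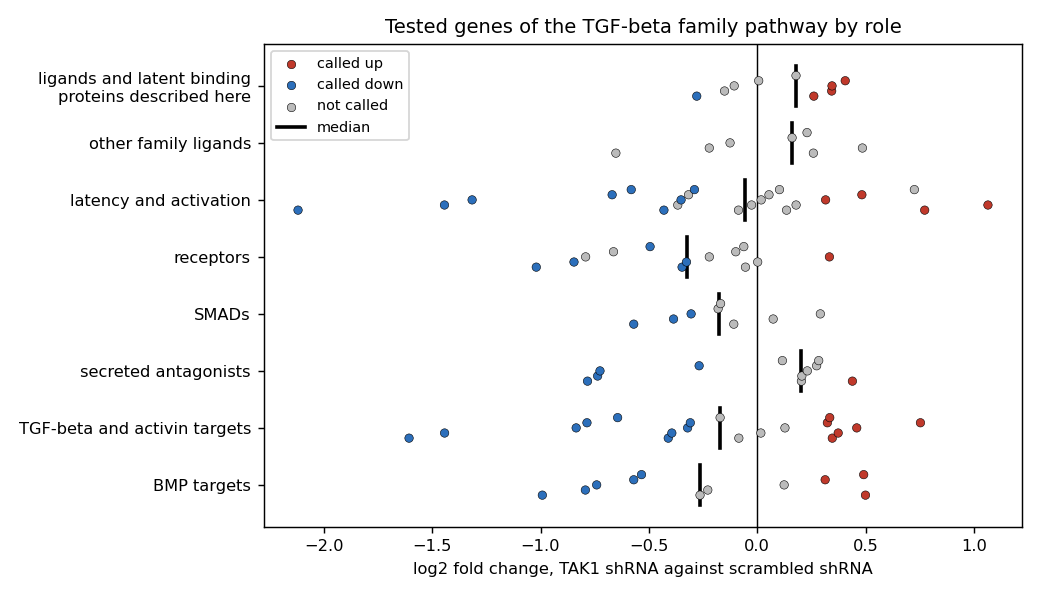
Log2 fold change, TAK1 shRNA against scrambled shRNA, of every tested gene of the members and of 7 lists of other pathway genes. Each point is a gene (red called higher, blue called lower, grey not called), the vertical position within a row carries no value, and black bars are medians. The receptor list has 5 genes called lower and 1 higher, and the members have 1 called lower and 4 higher. Over all tested genes 11.8% were called higher and 11.3% lower.

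Genes that store, cleave or release latent ligand split into both directions, with 4 higher and 8 lower among 22 tested of 26 listed. LRRC32, which anchors latent TGF-β on the cell surface, decreased from 8.48 ± 0.226 to 3.13 ± 0.404 CPM (log2 fold change -1.44, adjusted p = 1.25e-08 by edgeR). ITGB1, a partner of the integrin αV that binds the latent complex, decreased from 289.7 ± 4.48 to 116 ± 7.66 CPM. ADAMTSL4 and ADAMTSL2, proteins of the fibrillin matrix, rose by 1.07 and 0.77 on the log2 scale. Among the other latent binding proteins LTBP2 fell to 18.2 from 23.2 CPM (log2 fold change -0.35) and LTBP4 rose from 180.1 to 224 CPM (0.32). The protease FURIN, which cleaves the precursors of MSTN and the TGF-β isoforms, rose from 89.3 to 125 CPM (log2 fold change 0.48, SE 0.056). TLL2, a tolloid protease of the group that cuts the myostatin prodomain, fell from 465 to 292 CPM (log2 fold change -0.67, SE 0.042), while its relative BMP1 was at 51.8 and 52.5 CPM and was not called. LTBP2, LTBP4, FURIN, TLL2 and BMP1 were named after their values were seen, for their tie to the members.

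Among the receptors, 13 of 17 were tested, 5 fell and 1 rose, with a median of -0.33. TGFBR2, the type II receptor of the 3 TGF-β isoforms, fell by 1.02 on the log2 scale, and its partner TGFBR1 was at 168 and 161 CPM and was not called. ACVR2B, the type II receptor that binds myostatin and GDF11 most strongly, fell from 68.9 ± 4.04 to 54.2 ± 5.21 CPM (log2 fold change -0.35, adjusted p = 0.000219 by edgeR). The related ACVR2A, named after its value was seen, rose from 41.7 ± 3.12 to 52.5 ± 3.85 CPM (0.33, adjusted p = 0.000457 by edgeR). The groups did not overlap for either gene. ACVR1B, a type I receptor for activin and myostatin, fell from 49.7 to 35.3 CPM (log2 fold change -0.49). BMPR1A, a type I receptor for BMP4, fell from 254 ± 2.86 to 142 ± 3.75 CPM (-0.85).

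Of the 8 SMAD genes, all were tested, 3 fell and 0 rose, and DESeq2 and limma voom also called 0 higher. An unadjusted p under 0.05 by edgeR was found for 5 of the 8. Such p-values were common, since 2569 higher and 2734 lower genes of all 15935 passed the stricter adjusted p under 0.05 by edgeR. The 3 SMAD genes that fell belong to the BMP branch, SMAD6 (log2 fold change -0.57), an inhibitor of that branch, and SMAD5 (-0.39) and SMAD1 (-0.30), its signal carriers. SMAD2 and SMAD3, the carriers for TGF-β, myostatin and GDF11, were at -0.18 and 0.07 and were not called. SMAD2 missed the call through the fold threshold alone, with an adjusted p of 0.0129 by edgeR and no overlap between the groups.

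Secreted antagonists were called higher in 1 and lower in 4 of 11 tested genes of 20 listed. NOG, or noggin, which binds BMP4, fell from 44.3 ± 2.84 to 25.8 ± 3.60 CPM (log2 fold change -0.78). CHRD, or chordin, which also binds BMP4, rose from 4.48 to 6.07 CPM (0.44, adjusted p = 0.0202 by edgeR). BGN, a matrix proteoglycan that binds TGF-β, fell from 1075 to 646 CPM (-0.74). Of the myostatin-binding antagonists, FST was at most 0.143 CPM on average in either group and was not tested, and FSTL3, WFIKKN1 and WFIKKN2 were tested and not called, at 0.20, 0.27 and 0.23 on the log2 scale.

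The genes known to respond to TGF-β or activin were called higher in 6 and lower in 9 of 19 tested genes of 20 listed, with a median of -0.17. PDGFB, CDKN2B and CTGF were among those with the largest called changes, at -1.61, -0.84 and -0.79 on the log2 scale. The matrix genes FN1 (log2 fold change 0.46, from 1005 to 1382 CPM) and COL3A1 (0.32, from 6185 to 7742 CPM) rose and were named after their values were seen. Of the 13 listed BMP targets, 11 were tested, 3 rose and 5 fell, with a median of -0.26. ID2 (-0.99), RUNX2 (-0.79), MSX2 (-0.74) and SMAD6, which stands in both lists, fell, and ATOH8 (0.49), GATA2 (0.50) and TBX3 (0.31), named after their values were seen, rose. Many of these genes also answer to other signals, and the part of the ligands in their changes was not tested. Nor was the part of the higher muscle markers in the values of MSTN and the other members.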

How the data were processed

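Poly(A)-enriched RNA of RD cells was sequenced with paired ends in 3 control and 3 TAK1 knockdown samples. The authors deposited raw counts of reads per gene, after CASAVA base calling, read filtering and alignment to GRCh38 with STAR. The counter, annotation release and strand use are not given in the sources used here. Samples were grouped by their labels. Counts were filtered (filterByExpr), scaled by the trimmed mean of M-values and tested with edgeR 4.0.16 in R 4.3.3 (quasi-likelihood test), with p-values adjusted after Benjamini and Hochberg over 15935 genes, and CPM uses the same scaling. SEs are the log2 fold change over the square root of F. Tested genes held at least 99.9% of counts, and chi-square tests compared replicates. Ratios added 0.5 counts and used exact permutation tests (scipy 1.17.1).

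DESeq2 1.42.0, limma voom 3.58.1, 3 scalings, 2 filters, 2 fold thresholds, a replicate block and leaving out each sample were alternatives. Genes named are all members, MAP3K7 and, per list, at most 4 called genes of largest change whose mean reached 1 CPM and whose groups do not overlap, except where stated. Named outside this rule, after their values were seen, are cell markers, the tested other ligands, overlapping genes and receptors, SMADs and antagonists tied to the members (GFRAL, TGFBR1, SMAD2, SMAD3, FST, FSTL3, WFIKKN1 and WFIKKN2). Some genes this rule covers are not reported here. The members and the lists (other ligands, latency and activation, receptors, SMADs, antagonists, TGF-β and activin targets, BMP targets, cell markers) were chosen with earlier results of these data known. The fits were tested on simulated data. Gene positions and exon lengths came from GENCODE 44, promoters from RefSeq on GRCh38.p14.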

Additional observations from a re-analysis of the deposited data

How the results depend on the processing

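Over 16 alternatives for each of the 9 tested members, 126 of 144 values kept their direction and stayed called or not called, 13 lost the call, 2 gained it and 3, all of TGFB2, changed sign. Those that stayed not called include TGFB1 and LTBP3, whose adjusted p by edgeR, DESeq2 or limma voom crossed 0.05 in some alternatives (from 0.00435 to 0.234 and from 0.00256 to 0.136). The number of members called higher was 4 and became 5 without a fold threshold, 3 with the DESeq2 test or without the filter on low counts, and 0 at a fold threshold of 0.5. The number called lower was 1 and became 0 with library size alone, 2 without a fold threshold and 0 at a fold threshold of 0.5. Called higher and lower among other pathway genes were 15 and 33 and became 17 and 35 without a fold threshold and 3 and 20 at a fold threshold of 0.5. TGFB2 was at -0.072, -0.110 and -0.064 without control replicate 1, control replicate 2 and TAK1 knockdown replicate 3, and the GDF11 to MSTN difference was -0.028 without TAK1 knockdown replicate 1. Leaving out 1 sample at a time gave 3 to 4 members called higher and 1 called lower, 14 to 16 and 31 to 33 other pathway genes called higher and lower, TGFB2 values of -0.110 to 0.225, and differences in log2 ratio of -0.028 to 0.133 (GDF11 to MSTN), -0.528 to -0.382 (LTBP1 to LTBP3), 0.061 to 0.407 (TGFB2 to TGFB1) and 0.418 to 0.580 (TGFB3 to TGFB1). Over all 15935 tested genes the main settings called 1879 higher and 1805 lower. Library size alone gave 2376 and 1404 (62.9% of calls higher, against 51.0%), and a fold threshold of 0.5 gave 735 and 680. Without a fold threshold the numbers were 2569 and 2734, and with the DESeq2 test 1680 and 1809. Without the filter on low counts, 1809 and 1874 of 29336 genes were called higher and lower. Leaving out 1 sample at a time gave 1582 to 1810 genes called higher and 1675 to 1931 lower. Library size alone leaves out scaling factors of 0.977 to 0.988 in control and 1.01 to 1.03 in TAK1 knockdown libraries. Leaving these factors out raises log2 fold changes by construction, and a fold threshold removes small changes by construction. The cause of the other differences was not tested.

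Same-numbered samples correlated at 0.037, 0.036 and 0.016 in their deviations from the group means, and control replicate 3 correlated more with TAK1 knockdown replicate 2 than with its own number, so the numbers were not taken as pairs. A replicate block gave 4 members called higher and 1 lower, 1942 and 1848 genes over all, and a MSTN value of 0.34. Depth limits INHBA and TGFB2, whose counts are at most 33 in a library.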
